A study of Mus musculus with 13 samples.

Results

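Induced embryonic Sertoli cells (ieSC), made from fibroblasts with 5 transcription factors of the developing testis, were compared with Sertoli cells taken from adult mouse testis and grown in a dish. All 3 ieSC arrays, 2 from tail tip fibroblasts (TTF-ieSC) and 1 from mouse embryonic fibroblasts (MEF-ieSC), were set as 1 group against the 2 arrays of cultured mature Sertoli cells. These are 5 of the 13 arrays of the series. A gene was taken into the comparison when its brightest array feature lay above the array median on at least 2 of the 5 arrays, which left 15525 of 20738 genes. The rule used signal level and not the difference between the groups. It still let in 1684 genes that were above the median on mature Sertoli arrays alone, and 849 on ieSC arrays alone. For those genes the direction of the difference was largely set by the rule.

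Sertoli cells are the somatic cells of the seminiferous tubule that enclose and feed the germ cells. In the fetal gonad they arise when the transcription factors Nr5a1, Wt1 and Gata4 and the male-determining factor Sox9 act together, and they then make anti-Müllerian hormone and desert hedgehog. In the adult they stop dividing, seal the blood-testis barrier with claudin 11, bind androgen and follicle-stimulating hormone, and secrete carrier proteins, proteases and protease inhibitors into the tubule.

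The ieSC carried transgenes for Nr5a1, Wt1, Dmrt1, Gata4 and Sox9, were labelled as transdifferentiated cells and had been kept for 6 months in medium with 2% serum and doxycycline, the agent that switches such transgenes on. The mature Sertoli cells came from the testes of wild-type mice 8 weeks old, carried no transgene and were grown for 7 days in 10% serum without that drug. The other arrays of the series, 2 each, held immature Sertoli cells from testis at 19 days post coitum (dpc), whole male gonad at 14.5 dpc that was not cultured, TTF and MEF. The immature Sertoli cells had 3 days of culture in 10% serum, and TTF and MEF had 3 passages in 10% serum. Time in culture, serum, doxycycline and the transgenes all differ between the 2 groups and cannot be told apart. Whether replicate arrays came from separate animals or cultures is not given, so the p-values cover the spread between arrays alone, and that spread may be technical.

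Values are the deposited log2 signals of a 1-colour array, on which a difference of 1 is a fold of 2. Every array had the same median of 7.488 and the same top value of 18.872. The table holds no detection flags, so a value near or under that median is dim by rank, and a difference measured against it rests on an unknown background. Replicate arrays lay close together, with a root mean square distance of 0.249 between the TTF-ieSC arrays and 0.127 between the mature Sertoli arrays. The MEF-ieSC array lay 0.454 and 0.456 from the TTF-ieSC arrays, and any ieSC array lay 1.82 to 1.85 from any mature Sertoli array. The ieSC mean lay 1.82 from mature Sertoli cells, 1.56 from immature Sertoli cells and 1.70 from the gonad, beside 1.59 from MEF and 1.77 from TTF.

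Most of the transcriptome differed. By limma, 12555 genes (80.9% of those tested) passed an adjusted p of 0.05, with 6921 (44.6%) higher and 5634 (36.3%) lower in ieSC. Differences of 1 log2 unit or more were fewer and leaned the other way: 5506 genes (35.5%) were called at that size, 2400 (15.5%) higher and 3106 (20.0%) lower. The 3 ieSC arrays did not overlap the 2 mature Sertoli arrays for 13712 genes (88.3%), and counted by feature 18978 of 23443 (81.0%) were called. Among all genes tested the median difference was 0.11, and 180 genes rose and 730 fell by 4 log2 units or more. Shares this high mean that a call by itself sets a gene apart from few others, so sizes and levels are given for each gene below. In 1709 of the 3106 genes lower by 1 unit or more the ieSC mean was under the array median, and in 488 of the 2400 higher ones the mature Sertoli mean was.

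The 15 largest rises included genes of transporters, ion channels and cell surface proteins. Slc34a3, a sodium-phosphate cotransporter known from the kidney, had 15.81 and 15.73 on the TTF-ieSC arrays and 16.44 on the MEF-ieSC array, against 6.56 and 6.18 on the mature Sertoli arrays. It rose by 9.62 ± 0.58 (log2 difference and standard error of the fit, adjusted p = 1.9e-07). Dpp4, a membrane peptidase, had 14.31, 14.36 and 14.59 on the 3 ieSC arrays, against 5.13 and 5.79 on the 2 mature Sertoli arrays (rise of 8.96 ± 0.16). Both genes were dim in mature Sertoli cells and bright on every ieSC array. The ATP-gated channel gene P2rx2 had 17.67, 17.73 and 17.67 on the 3 ieSC arrays, against 9.28 and 9.25 on the 2 mature Sertoli arrays, well above the median in both groups, and rose by 8.42 ± 0.08 (adjusted p = 1.4e-12). Mest, an imprinted gene expressed from the paternal copy and active in embryonic mesoderm, had 17.96, 17.95 and 18.03 in ieSC and 10.24 and 10.19 in mature Sertoli cells and rose by 7.76 ± 0.06. All 12 of its tested features rose, by 7.12 to 8.17. The other rises were Ttr, the thyroid hormone carrier transthyretin (8.46), Vat1l (8.21), the homeobox gene Tlx2 (8.18), the neuronal intermediate filament gene Prph (8.03), Gpm6a (7.65), mesothelin Msln (7.57), the claudin gene Cldn15 (7.42), the sphingosine phosphate transporter Spns2 (7.29), the secreted Wnt antagonist Sfrp5 (7.26), the proton pump subunit Atp6v0a4 (7.21) and the collagen IX chain Col9a3 (7.20). In 9 of the 15 the mature Sertoli mean lay under the array median. Immature Sertoli cells were above the median for 11 of them, the gonad for 14, TTF for 9 and MEF for 10.

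The 15 largest falls held secreted factors, defensins and a germ cell enzyme. The chemokine gene Cxcl14 had 7.20 and 7.26 on the TTF-ieSC arrays and 5.76 on the MEF-ieSC array, against 17.65 and 17.64 on the mature Sertoli arrays, and fell by 10.90 ± 0.37 (adjusted p = 3.1e-09). Cxcl12, the chemokine that retains stem cells in their niches, had 5.12, 5.08 and 5.96 on the 3 ieSC arrays, against 16.16 and 16.23 on the 2 mature Sertoli arrays, a fall of 10.81 ± 0.22, and its other feature fell by 9.02. Neither gene reached the median on any ieSC array. Cxcl12 was bright in every other group, at 15.03 in immature Sertoli cells, 16.25 in the gonad, 16.78 in TTF and 17.01 in MEF. The beta-defensin genes Defb36 and Defb19, known from the male reproductive tract, fell by 10.31 and 9.15. Adh1, an alcohol dehydrogenase that oxidises retinol, fell by 9.75 and Aard, a gene of fetal Sertoli cells, by 9.59. The other falls were Clec2m (10.02), the Wnt modulator Sfrp2 (9.96), Ldhc, the lactate dehydrogenase of spermatocytes and sperm (9.95), Crispld2 (9.79), Plac8 (8.96), the platelet chemokine Pf4 (8.92), Lrrk2 (8.91), the glutamate transporter Slc1a6 (8.72) and the myosin light chain Myl9 (8.71). Plac8 and Lrrk2 each have another feature with a smaller fall, of 5.38 and 3.09. The ieSC mean lay under the array median for 14 of the 15, Myl9 being the exception, and immature Sertoli cells were above it for 14, TTF for 10 and MEF for 11.

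**Figure D1:**
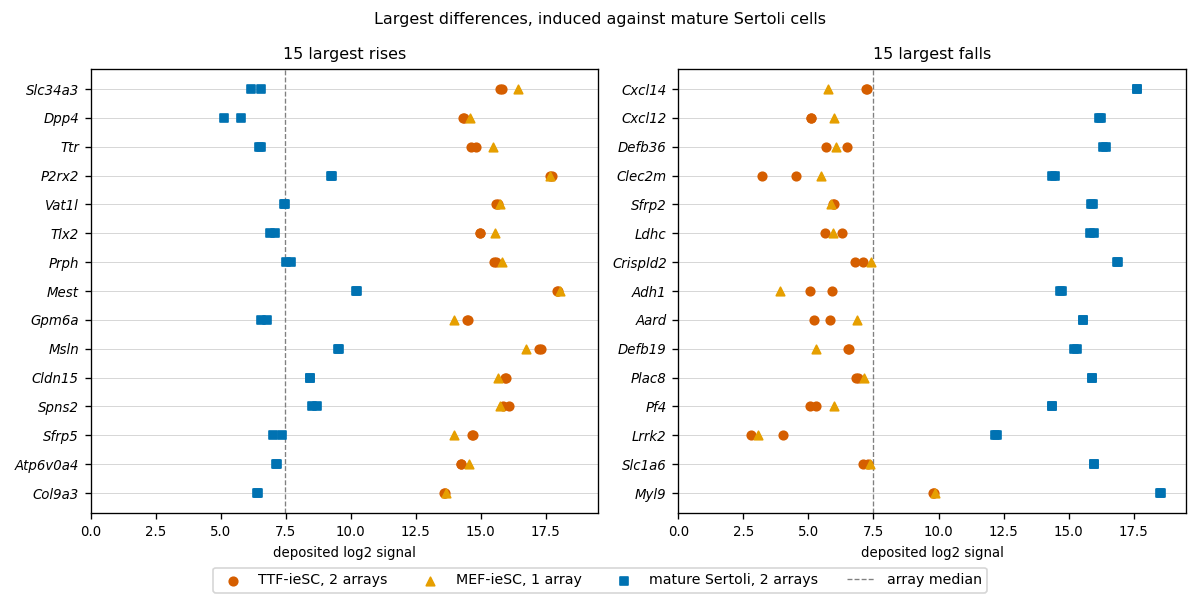
Deposited log2 signal (x axis) of the 15 genes with the largest rise (left) and the 15 with the largest fall (right) in ieSC against mature Sertoli cells, 1 point per array, with the array median of 7.488 as a dashed line. The ieSC and mature Sertoli points of each gene lie far apart, and on the right the ieSC points lie left of the dashed line for every gene but Myl9.

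Gene lists were then read one at a time, by how many members were called and by their median difference, to be set beside the 44.6% higher, the 36.3% lower and the median of 0.11 over all genes. Any member not on the array or not above the median on 2 of the 5 arrays is left out of a list's counts. Among lists with 5 or more tested members, the highest medians were those of mesothelial and podocyte genes (4.43) and cholesterol synthesis (1.70), and the lowest those of smooth muscle (-4.48), later germ cells (-4.29) and fibroblasts (-4.17).

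**Figure D2:**
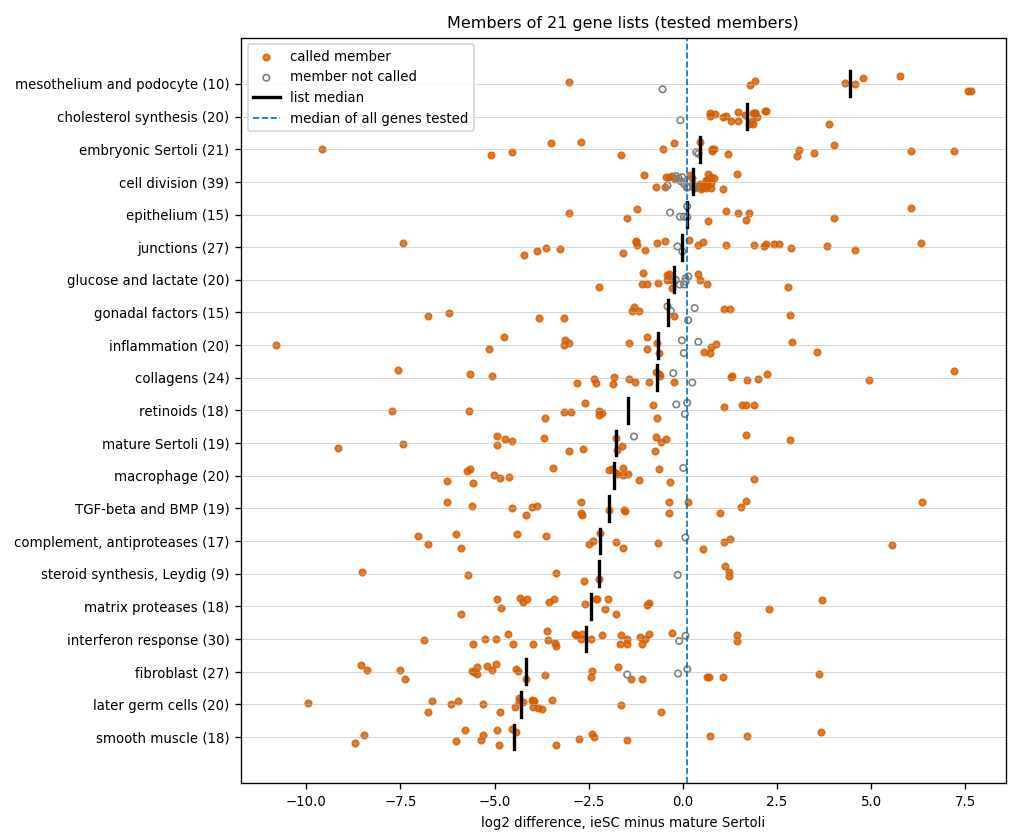
Log2 difference of each tested member of 21 gene lists (rows, with the number of tested members), ieSC minus mature Sertoli, with called members filled, other members open, the list median as a black bar and the median of all genes dashed. Cholesterol synthesis genes sit together above 0, while embryonic Sertoli, junction and collagen genes spread widely in both directions.

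The 5 delivered factors did not stand at a common level relative to the adult cells. A feature cannot tell a transgene's transcript from that of the cell's own gene, and how much of a delivered sequence it covers is not known. Wt1, a zinc finger factor of Sertoli cells and podocytes, had 16.48 and 16.49 on the TTF-ieSC arrays and 16.58 on the MEF-ieSC array, against 15.36 and 15.49 on the mature Sertoli arrays, and was the 1 factor that rose (1.09 ± 0.06, adjusted p = 1.6e-07). Gata4, which acts with Nr5a1 and Wt1 in the early gonad, had 6.70, 7.15 and 6.92 on the 3 ieSC arrays, against 13.44 and 13.59 on the 2 mature Sertoli arrays, a fall of 6.59 ± 0.13, and lay under the array median on every ieSC array. Nr5a1, the steroidogenic factor of gonad and adrenal, had 9.37, 9.36 and 8.94 on the 3 ieSC arrays, against 14.26 and 14.33 on the 2 mature Sertoli arrays, and fell by 5.07 ± 0.13. On the fibroblast arrays Gata4 was at 7.19 in TTF and 9.43 in MEF, and Nr5a1 at 8.28 in TTF and 9.19 in MEF. Sox9 fell by 3.22 ± 0.18, with 9.79, 9.79 and 9.12 in ieSC and 12.84 and 12.74 in mature Sertoli cells, and Dmrt1, a testis factor that represses the ovarian programme, fell by 1.11 ± 0.07, with 9.17, 9.17 and 9.21 in ieSC and 10.36 and 10.22 in mature Sertoli cells.

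Of 15 tested transcription factors of the gonad, Wt1 among them, 3 rose, 8 fell and 4 were not called, with a median of -0.41. Sox10, a factor of neural crest and glia that resembles Sox8 and Sox9, rose by 2.86 ± 0.07 (10.62, 10.62 and 10.56 in ieSC and 7.78 and 7.71 in mature Sertoli cells). The Polycomb gene Cbx2, whose loss causes sex reversal in mice, rose by 1.24. Gadd45g, needed for the timely onset of Sry, had 10.85, 10.79 and 10.14 on the 3 ieSC arrays, against 17.40 and 17.34 on the 2 mature Sertoli arrays, a fall of 6.77 ± 0.18. Tcf21 fell by 6.21, Nr0b1, which encodes Dax1, fell by 3.81, and Emx2 fell by 3.15. Foxl2, the factor of ovarian granulosa cells, had 14.42, 14.24 and 14.34 in ieSC and 14.79 and 14.69 in mature Sertoli cells and was not called (adjusted p = 0.15).

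Genes known from fetal Sertoli cells moved both ways. Of 21 tested, 11 rose and 8 fell, with a median of 0.45. Those at the higher end included genes of the hedgehog and prostaglandin outputs of the fetal Sertoli cell. Ptgds, the prostaglandin D synthase that feeds back on Sox9, had 18.03 and 18.14 on the TTF-ieSC arrays and 17.50 on the MEF-ieSC array, against 14.38 and 14.43 on the mature Sertoli arrays, which is 11.2-fold higher (log2 3.48 ± 0.15, adjusted p = 2.0e-08). Dhh, the hedgehog ligand of Sertoli cells, was at 15.73 ± 0.12 (SD, n = 3) in ieSC and 14.96 ± 0.07 (SD, n = 2) in mature Sertoli cells, a rise of 0.77 ± 0.08. Fgf9, the growth factor that sustains Sox9, had 10.89, 10.81 and 10.19 in ieSC and 7.49 and 7.59 in mature Sertoli cells and rose by 3.09 ± 0.18. The keratin genes Krt18 and Krt8, markers of immature Sertoli cells and of simple epithelia, rose by 6.05 and 4.01. Every ieSC array lay above both mature Sertoli arrays for these genes, and for Dhh the gap was under 1 log2 unit. The arrays did not overlap, in either direction, for 88.3% of all genes.

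Other fetal genes were lower. Inhbb, the beta B subunit of inhibin and activin, had 10.39, 10.38 and 10.37 on the 3 ieSC arrays, against 14.88 and 14.97 on the 2 mature Sertoli arrays, a fall of 4.55 ± 0.07 (adjusted p = 2.2e-11). Inha, the alpha subunit of inhibin, fell by 2.70 ± 0.06. Aard fell as given above, Mro by 5.10 (another feature by 2.04) and Cbln4 by 3.49. Amh, the anti-Müllerian hormone gene, was dim in both groups, with 7.30, 7.42 and 7.30 in ieSC and 6.95 and 6.22 in mature Sertoli cells, and was not tested; its level was 8.30 in immature Sertoli cells and 12.34 in the gonad at 14.5 dpc. The gonad mean of Amh was the highest of the series.

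Genes of the adult Sertoli cell were mostly lower in ieSC. Of 19 tested, 16 fell and 2 rose, with a median of -1.78. Cldn11, the claudin of the blood-testis barrier, had 8.10 and 8.07 on the TTF-ieSC arrays and 8.39 on the MEF-ieSC array, against 15.59 and 15.63 on the mature Sertoli arrays, which is 172-fold lower (log2 -7.42 ± 0.09, adjusted p = 4.5e-12). Rhox5, an androgen-driven homeobox gene of Sertoli cells, had 8.48, 8.57 and 8.36 on the 3 ieSC arrays, against 13.37 and 13.46 on the 2 mature Sertoli arrays, a fall of 4.94 ± 0.09. Shbg, known in rodent testis as androgen-binding protein, had 8.37, 8.29 and 8.29 in ieSC and 13.001 and 13.048 in mature Sertoli cells and fell by 4.71 ± 0.13. All 3 stood well above the median in mature cells and only a little above it in ieSC. The protease inhibitor gene Serpina5 fell by 4.94, Aqp8, a water channel, by 3.68, and Cst12, a cystatin, by 3.03.

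Fshr, the receptor of follicle-stimulating hormone, was dim or near the array median: 6.56 and 6.20 on the TTF-ieSC arrays and 2.74 on the MEF-ieSC array, against 7.86 and 7.74 on the mature Sertoli arrays. It fell by 2.64 ± 0.998 with an adjusted p of 0.033, and the call was lost without mature Sertoli replicate 1 or replicate 2 (adjusted p = 0.112 and 0.0982). Without the MEF-ieSC array the fall was smaller, a log2 difference of -1.43. The 2 members that rose were Trf, which encodes the transferrin that Sertoli cells supply to germ cells, by 2.84 ± 0.44 (17.99, 17.97 and 16.21 in ieSC and 14.63 and 14.48 in mature Sertoli cells), and Gdnf, the growth factor of spermatogonial stem cells, by 1.69 ± 0.15 (14.06, 14.00 and 13.54 in ieSC and 12.23 and 12.12 in mature Sertoli cells). Clu, the abundant secreted clusterin, was near the top of the scale in both groups, with 17.86, 17.81 and 17.82 in ieSC and 18.40 and 18.40 in mature Sertoli cells, and fell by 0.57 ± 0.08.

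**Figure D3:**
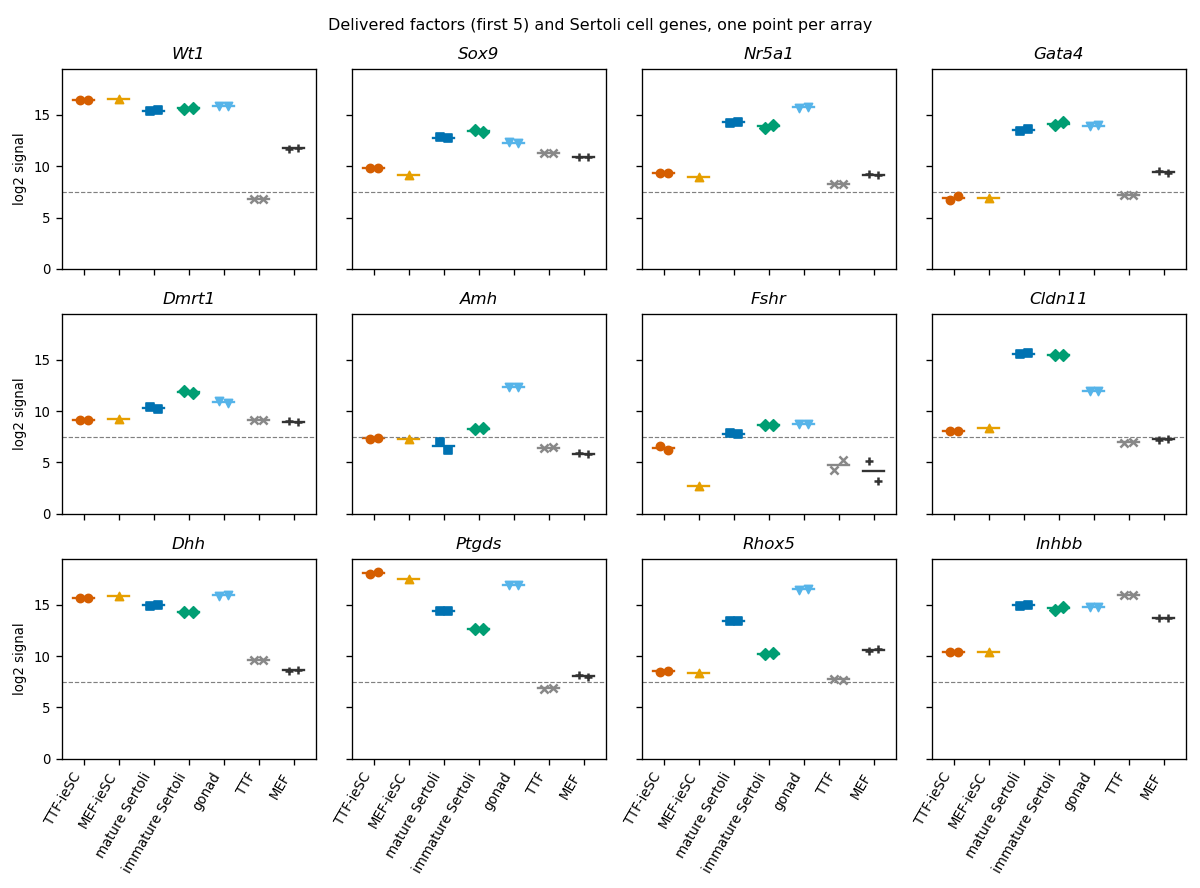
Deposited log2 signal (y axis) of the 5 delivered factors and of 7 Sertoli cell genes in the 7 groups (x axis), 1 point per array, with the group mean as a bar and the array median dashed. Wt1, Dhh and Ptgds are at or above the mature Sertoli level in both kinds of ieSC, while Nr5a1, Gata4, Cldn11, Rhox5 and Inhbb are several log2 units below it.

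Cell junction genes moved both ways. Of 27 tested, 13 rose and 12 fell, with a median of -0.01. Dsp, which encodes desmoplakin of desmosomes, had 13.61, 13.62 and 13.27 on the 3 ieSC arrays, against 8.97 and 8.91 on the 2 mature Sertoli arrays, a rise of 4.56 ± 0.11, and the desmosomal cadherin gene Dsg2 rose by 3.84. Features of Dsp agreed in direction, rising by 2.36 to 4.68. The tight junction gene Cldn3, a claudin of newly formed Sertoli barriers, had 15.21 and 15.22 on the TTF-ieSC arrays and 14.49 on the MEF-ieSC array, against 8.64 and 8.68 on the mature Sertoli arrays and rose by 6.31 ± 0.18; Tjp3 rose by 2.89. Besides Cldn11, the falls included Cdh3, P-cadherin (4.22), Jam2 (3.87, with another of its 3 features lower by 0.36 only) and Gja1, connexin 43, the gap junction protein that Sertoli cells use to couple to one another (3.26). For Cdh11 the fall of 3.62 stood beside another feature higher by 0.42.

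Among 15 tested epithelial genes 7 rose and 3 fell, with a median of 0.12. Epcam, an epithelial adhesion molecule, had 10.23, 10.39 and 10.04 in ieSC and 8.39 and 8.51 in mature Sertoli cells and rose by 1.77 ± 0.22, and the serine protease gene St14 rose by 1.67. Cdh1, E-cadherin, had 7.04, 6.90 and 6.58 on the 3 ieSC arrays, against 8.15 and 7.98 on the 2 mature Sertoli arrays, close to the median on all 5 arrays, with a fall of 1.22 ± 0.32. Krt7 and Krt19 were not called (adjusted p = 0.16 and 0.82). The stem cell antigen gene Prom1 fell by 3.03.

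Markers of mesothelium and podocytes, cell types that also depend on Wt1, held the highest list median. Of 10 tested members 8 rose and 1 fell, and all 8 rises were of 1 log2 unit or more. Msln had 17.25 and 17.30 on the TTF-ieSC arrays and 16.74 on the MEF-ieSC array, against 9.51 and 9.55 on the mature Sertoli arrays, a rise of 7.57 ± 0.14 (adjusted p = 5.7e-11). The uroplakin gene Upk3b, a mesothelial marker, had 12.82, 12.97 and 12.92 on the 3 ieSC arrays, against 7.02 and 7.27 on the 2 mature Sertoli arrays and rose by 5.76 ± 0.17, and Gpm6a had 14.48, 14.50 and 13.96 in ieSC and 6.77 and 6.56 in mature Sertoli cells. Lrrn4 rose by 4.78, the mesothelial transcription factor gene Bnc1 by 4.56 and podocalyxin, Podxl, by 4.30. Podocyte genes were not uniform: Synpo, an actin-binding protein of podocyte foot processes, fell by 3.02, and the slit diaphragm gene Nphs1 was dim in both groups, with 6.72, 6.43 and 6.58 in ieSC and 6.50 and 6.34 in mature Sertoli cells, and was not tested. Msln was also bright in immature Sertoli cells (12.87), MEF (12.69) and TTF (11.70).

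Cholesterol synthesis genes were higher in ieSC than in mature Sertoli cells, whose list mean was the lowest of the 7 groups. It was 13.60, 13.62 and 13.65 on the ieSC arrays and 12.04 on both mature Sertoli arrays. The gonad had 13.62 and 13.60, MEF 13.25 and 13.26, immature Sertoli cells 12.89 and 12.91 and TTF 12.69 and 12.71. Of 20 tested members 19 rose and none fell, and 16 of the rises were of 1 log2 unit or more. Tm7sf2, a sterol reductase, had 14.99 and 14.92 on the TTF-ieSC arrays and 15.11 on the MEF-ieSC array, against 11.15 and 11.08 on the mature Sertoli arrays, a rise of 3.89 ± 0.07 (adjusted p = 4.6e-11). Srebf2, the transcription factor that drives the pathway when sterol is scarce, had 12.72, 12.62 and 12.62 on the 3 ieSC arrays, against 10.83 and 10.67 on the 2 mature Sertoli arrays and rose by 1.91 ± 0.07. The early enzyme gene Hmgcs1 rose by 1.14 ± 0.07, Mvk by 0.73 ± 0.11, Hsd17b7 by 2.17 and Stard4, a sterol carrier, by 2.21. Sc5d alone was not called, with 13.81, 13.77 and 13.74 in ieSC and 13.79 and 13.89 in mature Sertoli cells. In each of the 19 genes the lowest ieSC array stood above the highest mature Sertoli array. Over all genes tested, 88.3% did not overlap, counting both directions. Serum, a source of lipoprotein cholesterol, was lower in the ieSC medium and cannot be told apart from the other differences between the cultures. RefSeq promoters (build GRCm38.p6), each running from 250 bases before the gene start to 50 after it and searched on both strands, were found for 16 of the 20 genes. None held the exact letters of the classical sterol response element, which 0.0999% of all 27025 genes with a promoter do. At that share 16 promoters are too few to show a lack of the element, and variant forms were not searched.

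Of 20 genes of glucose uptake and glycolysis, on which Sertoli cells rely to supply lactate to germ cells, 4 rose and 10 fell, mostly by little (median -0.24). Hk2, an inducible hexokinase, had 12.14, 12.12 and 11.94 on the 3 ieSC arrays, against 14.27 and 14.30 on the 2 mature Sertoli arrays, a fall of 2.22 ± 0.09. The lactate dehydrogenase gene Ldha fell by 0.67 ± 0.08 and the lactate exporter gene Slc16a3 by 0.94. Slc2a8, a glucose transporter, rose by 2.80 ± 0.10, and Gapdh was not called, with 18.29, 18.26 and 18.35 in ieSC and 18.39 and 18.37 in mature Sertoli cells.

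Division genes were expressed at close levels in both cultures. Of 39 tested, 21 rose and 7 fell, with a median of 0.28, and 2 rose and 1 fell by 1 log2 unit or more. Mki67, the Ki-67 proliferation antigen, had 15.28 and 15.26 on the TTF-ieSC arrays and 15.10 on the MEF-ieSC array, against 14.72 and 14.70 on the mature Sertoli arrays, a rise of 0.50 ± 0.06 (adjusted p = 3.6e-05). Top2a, the topoisomerase of mitotic chromosomes, had 12.93, 13.03 and 12.99 in ieSC and 12.88 and 12.83 in mature Sertoli cells and was not called. The replication licensing genes Cdt1 and Mcm2 rose by 1.44 and 0.76, while Rrm2, the ribonucleotide reductase subunit, fell by 1.03 and the mitotic kinase gene Aurka by 0.72. Of the 39 genes 32 matched a promoter, and 18 of these (56.2%) held the letters of the cell cycle homology element, TTTGAA or TTCGAA on either strand, beside 21.7% of all genes.

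Of 20 tested inhibitors of the cell cycle and targets of p53, 12 were higher and 7 lower, with a median of 0.48. Over all genes tested 44.6% were higher and 36.3% lower, with a median of 0.11. Cdkn2a, the locus of the inhibitors p16 and p19ARF, had 14.34, 14.32 and 14.10 on the 3 ieSC arrays, against 12.84 and 12.89 on the 2 mature Sertoli arrays, a rise of 1.39 ± 0.09. Cdkn1b, p27, an inhibitor that increases as Sertoli cells stop dividing, rose by 1.24 ± 0.14, and the p53 target gene Perp by 2.62. Cdkn1a, p21, rose by 0.28 ± 0.07 only, and the imprinted Cdkn1c, p57, fell by 3.56 ± 0.35.

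Interferon response genes were lower in ieSC. Of 30 tested, 26 fell and 2 rose, with a median of -2.57, and 24 of the falls were of 1 log2 unit or more. The ieSC mean was above the array median for 20 of the 30 and the mature Sertoli mean for all 30, so the filter favoured falls here. Of the 23 members with a promoter match, 11 (47.8%) hold the letters of the interferon-stimulated response element, GAAA, any 2 bases, GAAA, on either strand, beside 3.99% of all genes. The 5 that fell most with a match before the gene start are shown to place those letters, in 80 bases that end at or before that start, 5′ to 3′ on the gene's strand, with the matching bases in capitals.
Oas1a, chr5:120907526-120907605, minus strand: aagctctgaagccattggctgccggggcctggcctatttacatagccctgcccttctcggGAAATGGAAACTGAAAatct
Bst2, chr8:71537558-71537637, minus strand: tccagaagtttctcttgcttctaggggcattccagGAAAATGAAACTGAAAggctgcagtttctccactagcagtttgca
Ifit1, chr19:34640750-34640829, plus strand: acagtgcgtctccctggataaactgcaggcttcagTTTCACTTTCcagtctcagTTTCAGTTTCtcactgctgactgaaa
Gbp2, chr3:142620569-142620648, plus strand: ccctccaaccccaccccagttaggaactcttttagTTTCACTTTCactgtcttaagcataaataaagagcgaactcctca
Isg15, chr4:156200852-156200931, minus strand: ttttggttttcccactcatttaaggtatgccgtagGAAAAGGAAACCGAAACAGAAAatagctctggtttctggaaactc
Matches in Oas1a, Bst2 and Isg15 overlap one another, so that 2, 2 and 3 copies form 1 run, and Ifit1 and Gbp2 carry the letters on the opposite strand. The first match begins 20 bases before the gene start in Oas1a, 130 in Bst2, 104 in Ifit1, 59 in Gbp2 and 78 in Isg15. These are matches of letters and show no binding.

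Oas1a, an enzyme that senses double-stranded RNA, had 6.48 and 6.74 on the TTF-ieSC arrays and 7.42 on the MEF-ieSC array, against 13.71 and 13.83 on the mature Sertoli arrays, a fall of 6.89 ± 0.22 (adjusted p = 2.0e-09), and its other feature fell by 4.07. Isg15, a ubiquitin-like protein induced by interferon, had 12.59, 12.54 and 12.97 on the 3 ieSC arrays, against 15.51 and 15.28 on the 2 mature Sertoli arrays, a fall of 2.69 ± 0.28. The RNA sensor gene Ifih1 had 4.87, 5.78 and 5.87 in ieSC and 11.03 and 11.13 in mature Sertoli cells and fell by 5.57 ± 0.24 (another feature by 2.84). Rtp4 and Usp18 fell by 5.26 and 4.97. Every ieSC array was below both mature Sertoli arrays for these genes, beside 88.3% of all genes without overlap in either direction. The 2 members that rose were Ifit2, by 1.45 ± 0.07 (11.27, 11.23 and 11.15 in ieSC and 9.78 and 9.75 in mature Sertoli cells), and Oasl1, by 1.43 ± 0.32 (12.62, 12.65 and 13.89 in ieSC and 11.68 and 11.56 in mature Sertoli cells). Macrophage markers were also lower in ieSC, with falls in 18 of the 20 tested of 21 on the array. Their mean over the 21 genes was 7.07 to 7.34 on the ieSC arrays and 9.75 to 9.79 on the mature Sertoli arrays. On each ieSC array 6 of them stood above the median, and on each mature Sertoli array 20 did, so the filter favoured falls among them. Their part in the interferon result was not tested. In samples of many cells, fewer cells of a type and less RNA per cell cannot be told apart.

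Chemokines and other inflammatory genes moved less uniformly, with 6 higher and 11 lower of 20 tested and a median of -0.66. Ccl2, the monocyte chemokine, had 18.51 and 18.55 on the TTF-ieSC arrays and 17.98 on the MEF-ieSC array, against 14.86 and 14.69 on the mature Sertoli arrays, a rise of 3.57 ± 0.16 (adjusted p = 2.3e-08), and Il33, an alarmin, had 12.50, 12.50 and 12.22 in ieSC and 9.52 and 9.51 in mature Sertoli cells and rose by 2.89 ± 0.08. On the lower side, besides Cxcl12, were Il6 (6.10, 6.47 and 6.19 in ieSC and 11.41 and 11.39 in mature Sertoli cells, a fall of 5.15 ± 0.10), Ptgs2, the inducible prostaglandin synthase (4.75), and Cxcl5 (3.15). Another 6 of the list, among them Il1b, were dim in both groups and not tested.

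Complement components and protease inhibitors, which Sertoli cells secrete in quantity, fell in 12 and rose in 4 of 17 tested, with a median of -2.20. Serping1, the inhibitor of C1, had 8.15 and 7.77 on the TTF-ieSC arrays and 6.89 on the MEF-ieSC array, against 14.64 and 14.61 on the mature Sertoli arrays, a fall of 7.02 ± 0.28 (adjusted p = 9.3e-09). Complement C2 fell by 6.78, C3 by 3.62, Serpinf1 by 6.03 and haptoglobin, Hp, by 5.90. Serpine2, an inhibitor of plasminogen activators, had 14.21, 14.32 and 14.27 on the 3 ieSC arrays, against 8.59 and 8.83 on the 2 mature Sertoli arrays and rose by 5.55 ± 0.10, and Serpina3n rose by 1.26. The macrophage marker levels given above moved in the same direction as the falls, and their part here was not tested either.

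The contractile programme of smooth muscle, which in the testis belongs to the peritubular myoid cells, was lower in ieSC. Of 18 tested members 15 fell and 3 rose, with a median of -4.48. Myl9, a regulatory light chain of smooth muscle myosin, had 9.82 and 9.80 on the TTF-ieSC arrays and 9.86 on the MEF-ieSC array, against 18.53 and 18.56 on the mature Sertoli arrays, which is 420-fold lower (log2 -8.71 ± 0.06, adjusted p = 2.8e-13). Acta2, smooth muscle actin, had 13.04, 13.08 and 13.69 on the 3 ieSC arrays, against 18.58 and 18.58 on the 2 mature Sertoli arrays, a fall of 5.31 ± 0.18. Actg2 had 7.92, 7.97 and 8.21 in ieSC and 16.47 and 16.52 in mature Sertoli cells, falling by 8.46 ± 0.08, and Myh11, the smooth muscle myosin heavy chain, fell by 6.03 ± 0.11. Acta2 stayed well above the median in ieSC, while Myh11 lay under it on every ieSC array. Ldb3, a protein of the muscle Z-line, rose by 3.68 ± 0.13 (13.19, 13.31 and 13.65 in ieSC and 9.66 and 9.74 in mature Sertoli cells; another feature by 1.48), and Smtn, smoothelin, by 1.71. MEF carried this list at 13.48 and 13.54 on average and TTF at 11.87 and 11.86, against 10.14, 10.16 and 10.42 on the ieSC arrays and 13.70 and 13.68 on the mature Sertoli arrays.

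The CArG box, the site of serum response factor, was found in 3 of the 14 members with a promoter match, Myl9, Cnn2 and Ldb3 (21.4%, beside 1.81% of all genes). The windows of Myl9 and Cnn2, the 2 that fell, are given to show its place, 161 bases before the gene start in Myl9 and 56 in Cnn2, with the box in capitals.
Myl9, chr2:156775268-156775347, plus strand: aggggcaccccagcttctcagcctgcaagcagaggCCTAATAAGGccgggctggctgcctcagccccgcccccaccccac
Cnn2, chr10:79988509-79988588, plus strand: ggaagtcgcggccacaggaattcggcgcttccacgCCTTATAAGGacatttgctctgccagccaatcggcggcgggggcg
Cnn2, the calponin gene of many cell types, had 12.45, 12.60 and 12.63 in ieSC and 15.23 and 15.39 in mature Sertoli cells, a fall of 2.76 ± 0.09, and Ldb3, which also holds the box, rose.

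Fibroblast genes were mostly lower in ieSC than in the mature Sertoli cultures. Of 27 tested, 20 fell and 4 rose, with a median of -4.17. Thy1, the surface antigen used to mark fibroblasts, had 6.01 and 6.60 on the TTF-ieSC arrays and 7.18 on the MEF-ieSC array, against 11.97 and 12.16 on the mature Sertoli arrays, a fall of 5.47 ± 0.26 (adjusted p = 3.2e-08), beside 17.84 in TTF and 17.51 in MEF. Ogn, a small proteoglycan, had 5.20, 5.95 and 5.99 on the 3 ieSC arrays, against 14.24 and 14.27 on the 2 mature Sertoli arrays and fell by 8.55 ± 0.20, the crosslinking enzyme gene Lox fell by 8.39, Mfap5 by 7.52 and the mesenchymal transcription factor gene Prrx1 by 7.38. Vim, vimentin, a filament of both Sertoli cells and fibroblasts, had 17.23, 17.21 and 17.30 in ieSC and 17.59 and 17.60 in mature Sertoli cells and fell by 0.35 ± 0.07. Fmod, fibromodulin, rose by 3.61 ± 0.17 (12.15, 12.29 and 12.84 in ieSC and 8.89 and 8.74 in mature Sertoli cells). Dcn, decorin, rose by 0.70 ± 0.23, with means of 16.75 in ieSC and 16.05 in mature Sertoli cells, beside 16.49 in TTF and 15.08 in MEF. Ddr2 rose by 0.64 ± 0.08. On the mature Sertoli arrays 27 of the 28 genes stood above the median, and on the ieSC arrays 13, 14 and 15 did, so the filter favoured falls in this list.

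Collagens did not move as a block. Of 24 tested, 7 rose and 15 fell, with a median of -0.68. The 2 chains of type I collagen differed: Col1a2 had 10.996 and 10.841 on the TTF-ieSC arrays and 10.92 on the MEF-ieSC array, against 18.45 and 18.49 on the mature Sertoli arrays, a fall of 7.55 ± 0.07, while Col1a1 had 16.12, 16.14 and 16.88 on the 3 ieSC arrays, against 17.30 and 17.25 on the 2 mature Sertoli arrays, a fall of 0.89 ± 0.19. The direction is the same for both chains, and the fall of Col1a2 is by far the larger. Col3a1 and Col8a1 fell by 5.06 and 5.65. The rises were led by Col9a3, with 13.60, 13.63 and 13.65 in ieSC and 6.43 and 6.41 in mature Sertoli cells, which was also above the median in the gonad (10.48), then by Col14a1 (4.94) and the type VI chains Col6a2 (2.23) and Col6a1 (2.01).

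In the basement membrane, which Sertoli cells build together with the myoid cells, 8 genes rose and 7 fell of 15 tested. Laminin chains moved both ways: Lama5 had 14.96, 15.06 and 15.03 on the 3 ieSC arrays, against 11.12 and 11.17 on the 2 mature Sertoli arrays, a rise of 3.87 ± 0.08, and Lamc1 rose by 1.46, while Lamb1 had 7.81, 7.92 and 9.10 in ieSC and 15.60 and 15.66 in mature Sertoli cells, a fall of 7.35 ± 0.31, and Lama2 fell by 6.10. Agrin, Agrn, rose by 3.21 (another feature by 1.74). Matrix proteases and their inhibitors were mostly lower, with 16 falls and 2 rises of 18 tested and a median of -2.45. Adamts2, the procollagen peptidase, fell by 5.90 ± 0.29 (another feature by 3.10), Mmp11 by 4.93, Mmp2 by 4.32 and the protease inhibitor gene Timp1 by 2.29. Mmp15 rose by 3.68 ± 0.07 (10.99, 10.95 and 10.97 in ieSC and 7.30 and 7.27 in mature Sertoli cells) and the plasminogen activator gene Plat, a product of Sertoli cells, by 2.30 ± 0.05.

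Retinoic acid made around Sertoli cells starts each wave of sperm formation, and most genes of its handling were lower: 11 fell and 4 rose of 18 tested, with a median of -1.47. Aldh1a2, a retinal dehydrogenase, had 7.34 and 7.09 on the TTF-ieSC arrays and 7.16 on the MEF-ieSC array, against 14.88 and 14.98 on the mature Sertoli arrays, a fall of 7.73 ± 0.09 (adjusted p = 2.9e-12). Aldh1a1, the dehydrogenase that Sertoli cells use, stayed bright at 17.15 ± 0.11 (SD, n = 3) in ieSC and 17.83 ± 0.03 (SD, n = 2) in mature Sertoli cells, with a fall of 0.68 ± 0.07. Rbp4, the retinol carrier, fell by 5.67 and the receptor gene Rarb by 3.66. Cyp26b1, which degrades retinoic acid in the fetal testis, had 14.32, 14.26 and 13.96 in ieSC and 12.59 and 12.64 in mature Sertoli cells, a rise of 1.57 ± 0.11, and Rdh10 and the receptor gene Rarg rose by 1.90 and 1.68.

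In the TGF-beta, activin and BMP list 14 of 19 tested fell and 5 rose, with a median of -1.95. Inhba, the beta A subunit of activin, had 9.12 and 9.17 on the TTF-ieSC arrays and 9.35 on the MEF-ieSC array, against 15.55 and 15.42 on the mature Sertoli arrays, a fall of 6.27 ± 0.08, and the activin-binding protein gene Fstl3 fell by 4.17. Bmp4 fell by 5.60 ± 0.43 (9.70, 9.86 and 8.06 in ieSC and 14.81 and 14.80 in mature Sertoli cells), while Bmp7, a ligand of kidney and mesothelium among other tissues, had 15.48, 15.45 and 15.32 on the 3 ieSC arrays, against 9.13 and 8.99 on the 2 mature Sertoli arrays and rose by 6.35 ± 0.10. Tgfb1 rose by 1.68 over 10 features that rose by 1.62 to 1.81. Among growth factors of the stem cell niche 10 of 18 fell and 6 rose: Wnt5a fell by 5.37, Nrg1 by 5.50, Kitl, the ligand by which Sertoli cells keep spermatogonia alive, by 1.65 ± 0.35, and Vegfa rose by 1.03. Hormone and growth factor receptors split evenly, 9 higher and 9 lower of 18. At the higher end were Fgfr3 (3.97 ± 0.08 higher, another feature by 1.97) and Bmpr1b (3.16 higher). At the lower end were Pdgfra (4.17 lower), the thyroid hormone receptor gene Thrb (a log2 difference of -4.14) and the estrogen receptor gene Esr1 (-3.82, its features from -5.40 to -1.85).

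Enzymes that detoxify and protect from oxidation were lower in 14 and higher in 3 of 22 tested, with a median of -1.77. Sod3, the extracellular superoxide dismutase, had 5.74 and 5.97 on the TTF-ieSC arrays and 5.68 on the MEF-ieSC array, against 14.09 and 14.01 on the mature Sertoli arrays, a fall of 8.25 ± 0.11 (adjusted p = 8.7e-12). The glutathione transferase genes Gsta2 and Gsta3 fell by 6.92 and 6.74, though these are close relatives whose features may share targets, and Gpx1 fell by 2.04. Gstt1 and Cat rose by 2.19 and 0.87. Genes of the lysosome and of the uptake of dead germ cells, a main task of the adult cell, fell in 12 and rose in 7 of 25 tested, with a median of -0.17: Ctsk fell by 5.54, Gpnmb by 4.11 and Gas6, a bridge to dying cells, by 2.74, while its receptor gene Mertk had 12.35, 12.29 and 12.51 in ieSC and 10.17 and 9.99 in mature Sertoli cells and rose by 2.30 ± 0.10.

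Imprinted genes, each expressed from 1 parental copy, held some of the widest gaps. Of 20 tested, 5 rose and 12 fell, with a median of -0.72. H19, a maternally expressed noncoding RNA that is silenced in many tissues after birth, had 17.23 and 17.31 on the TTF-ieSC arrays and 18.03 on the MEF-ieSC array, against 10.36 and 10.55 on the mature Sertoli arrays, a rise of 7.07 ± 0.20 (adjusted p = 9.3e-10). Igf2, its neighbour, was dim in both groups, with 6.49, 6.82 and 6.76 in ieSC and 6.85 and 6.85 in mature Sertoli cells, and was not tested. Meg3, a noncoding RNA of another imprinted domain, had 6.04, 6.30 and 6.16 on the 3 ieSC arrays, against 13.73 and 13.91 on the 2 mature Sertoli arrays, a fall of 7.65 ± 0.09; its 3 features fell by 2.28 to 7.65. From the same domain Dlk1 fell by 4.71 (another feature by 2.99) and Mirg by 5.12. Elsewhere Plagl1 fell by 4.99, with another of its 4 features lower by 0.28, and Ndn fell by 4.59. Phlda2 and Peg3 rose by 2.94 and 2.16. Genes that write and erase DNA methylation rose in 6 and fell in 1 of 8: Tet1 rose by 3.22 ± 0.10 and Dnmt3l, the cofactor of germ line methylation, fell by 4.13 ± 0.07.

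Hox genes lie in 4 clusters, set the identity of body segments and differed by cluster. This split was made after the values were seen. In the HoxA cluster 9 of 10 tested genes rose and none fell, by a median of 2.45. Hoxa11 had 12.43 and 12.39 on the TTF-ieSC arrays and 12.44 on the MEF-ieSC array, against 6.17 and 7.03 on the mature Sertoli arrays, a rise of 5.82 ± 0.20 (adjusted p = 2.8e-09). Hoxa13 rose by 4.11 ± 0.26 (another feature by 2.29) and Hoxa7 by 3.73 ± 0.09. In the HoxB cluster all 9 tested genes fell, with Hoxb4 at 4.25, 4.66 and 5.53 in ieSC and 10.25 and 10.36 in mature Sertoli cells, a fall of 5.50 ± 0.29. All 7 tested HoxC genes fell as well, led by Hoxc9, with 5.51, 3.95 and 5.07 on the 3 ieSC arrays, against 11.79 and 11.88 on the 2 mature Sertoli arrays, a fall of 6.99 ± 0.35, and Hoxc6, by 5.52. The ieSC mean lay under the array median for 8 of the 9 HoxB genes and for all 7 HoxC genes, so the filter favoured falls in these clusters. In HoxA the mature Sertoli mean lay under it for 5 of the 10 genes, and the filter favoured rises for those 5. HoxD genes divided along the cluster: Hoxd13 and Hoxd11 rose, Hoxd13 by 4.60 ± 0.11 with Hoxd11 at 10.39, 10.51 and 10.46 in ieSC and 8.92 and 8.98 in mature Sertoli cells, and the other 5 tested fell, among them Hoxd8 by 2.03.

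**Figure D4:**
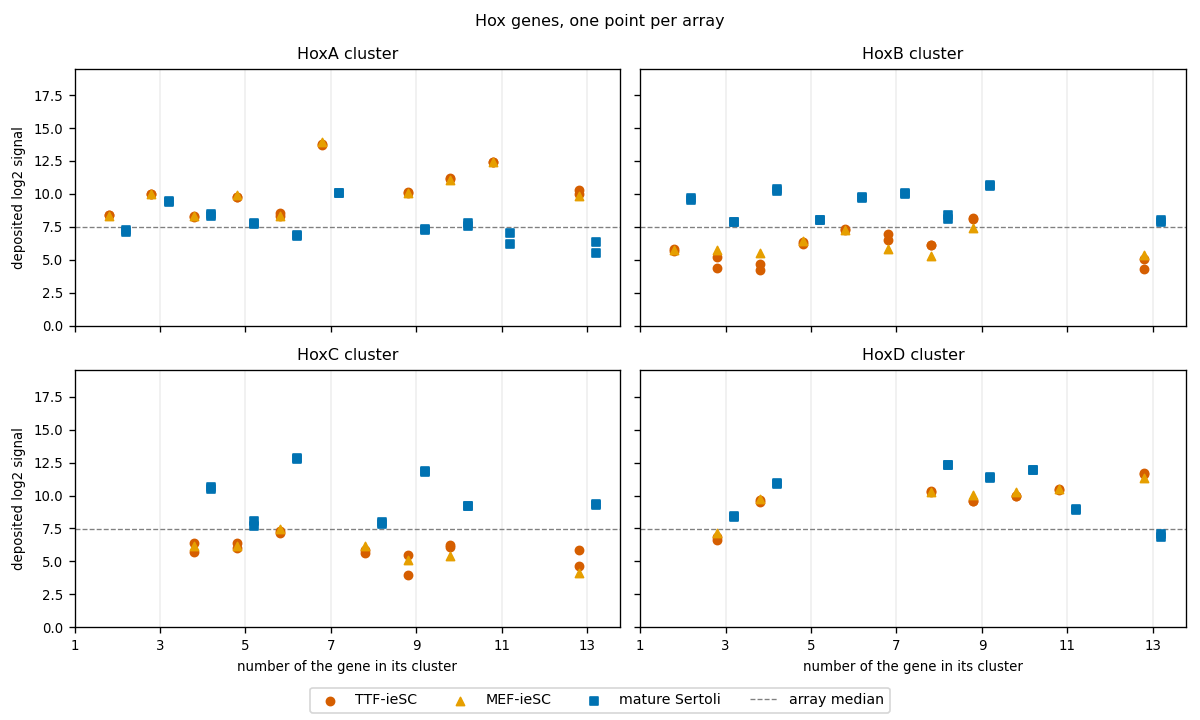
Deposited log2 signal (y axis) of the tested Hox genes by their number in each of the 4 clusters (x axis), 1 point per array, with ieSC points left of the mature Sertoli points and the array median dashed. The ieSC points lie above the mature Sertoli points through most of HoxA and below them through HoxB and HoxC.

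The mature Sertoli cultures carried transcripts of meiotic and later germ cells that the ieSC had at low levels, while lists of other testis cells were less uniform. All 20 genes of meiotic and later germ cells fell, with a median of -4.29, 19 of them by 1 log2 unit or more. The ieSC mean was above the array median for 5 of the 20, so the filter favoured falls in this list. Ldhc had 6.30 and 5.62 on the TTF-ieSC arrays and 5.93 on the MEF-ieSC array, against 15.96 and 15.84 on the mature Sertoli arrays. Prm1, a protamine that packs sperm DNA, had 8.34, 8.15 and 7.89 on the 3 ieSC arrays, against 12.01 and 12.11 on the 2 mature Sertoli arrays, and fell by 3.94 ± 0.16, and Smcp, of the sperm mitochondrial capsule, fell by 6.76. The list's mean was 6.50 to 6.90 on the ieSC arrays and 11.37 to 11.38 on the mature Sertoli arrays, beside 8.06 and 8.11 in immature Sertoli cells. Early germ cell genes fell in 9 and rose in 5 of 16 tested of 20 on the array: the helicase gene Ddx4 fell by 5.68 ± 0.41, Stra8, the target of retinoic acid, by 7.21 and Mael by 8.01, whereas Lin28a rose by 2.79 ± 0.16 (11.89, 11.97 and 11.35 in ieSC and 8.91 and 8.98 in mature Sertoli cells).

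Steroid synthesis genes, of which Leydig cells hold most, fell in 5 and rose in 3 of 9 tested, over a list mean of 9.73 to 9.94 on the ieSC arrays and 11.74 to 11.75 on the mature Sertoli arrays. The 3 rises were of 1 log2 unit or more, up to 1.23. Cyp11a1, the enzyme that starts steroid synthesis, had 5.72 and 4.36 on the TTF-ieSC arrays and 4.58 on the MEF-ieSC array, against 13.32 and 13.48 on the mature Sertoli arrays, a fall of 8.52 ± 0.38 (adjusted p = 2.0e-08), and Star, the cholesterol importer of mitochondria, had 7.80, 7.72 and 7.74 in ieSC and 13.50 and 13.42 in mature Sertoli cells and fell by 5.70 ± 0.05. Cyp17a1 was not called, with 11.18, 10.93 and 10.76 in ieSC and 11.29 and 10.89 in mature Sertoli cells. Macrophage genes fell in 18 of 20 tested. The ieSC mean was above the array median for 6 of the 20, so the filter favoured falls in this list too. C1qc had 5.01, 5.81 and 5.51 on the 3 ieSC arrays, against 10.39 and 10.52 on the 2 mature Sertoli arrays, a fall of 5.01 ± 0.18. Mrc1 was lower by 6.27 and Ctss by 5.72, and Cd14 alone rose, by 1.90 ± 0.13. Csf1r and Adgre1 fell by 1.88 and 1.15, with other features at a difference of 0.39 and -5.63. Of 15 tested endothelial genes 6 rose and 8 fell, with Cdh5, VE-cadherin, lower by 5.39 and the adhesion gene Esam higher by 4.97. Eng was lower by 5.05, and Egfl7 and Flt1 were higher by 3.25 and 3.18. The part of germ, Leydig, macrophage, endothelial or myoid cells in any difference between the 2 cultures was not tested.

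**Figure D5:**
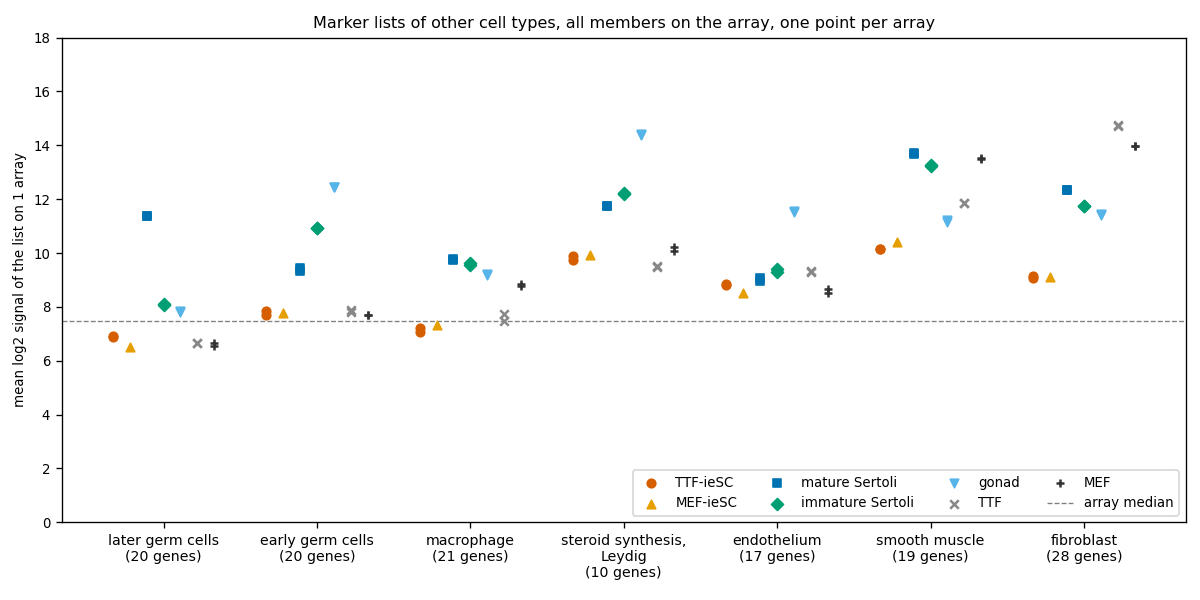
Mean deposited log2 signal (y axis) of all members on the array of 7 marker lists (x axis, with their number of genes), 1 point per array for the 7 groups, with the array median dashed. The ieSC points lie under the mature Sertoli points in every list, by the least for endothelium, and the later germ cell list is highest in mature Sertoli cells.

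Fewer genes were called between the 2 origins of the induced cells than between either origin and mature cells. Set apart in a fit with 7 groups, TTF-ieSC differed from mature Sertoli cells in 7001 genes higher (45.1%) and 5726 lower (36.9%), and MEF-ieSC in 6592 higher (42.5%) and 5418 lower (34.9%). These comparisons share the mature Sertoli arrays. Between TTF-ieSC and MEF-ieSC 2244 genes (14.5%) were called, 1167 higher and 1077 lower in TTF-ieSC, with the single MEF-ieSC array assumed to vary like the other groups. The 1167 became 759 and 733 without TTF-ieSC replicate 1 and replicate 2. A call against mature Sertoli cells was made in opposite directions for 64 genes. Of the named ones, Tbx15, a limb and skin mesenchyme factor, had 8.38 and 8.45 on the TTF-ieSC arrays and 5.75 on the MEF-ieSC array, against 7.28 and 7.25 on the mature Sertoli arrays, so TTF-ieSC stood above the mature cells and MEF-ieSC below. Igf2bp3, a fetal RNA-binding protein, had 7.98, 7.98 and 10.32 on the 3 ieSC arrays, against 9.00 and 9.15 on the 2 mature Sertoli arrays, and Gucy1b1, a subunit of the nitric oxide receptor, had 8.92, 9.00 and 11.20 in ieSC and 9.74 and 9.79 in mature Sertoli cells; both were higher in MEF-ieSC and lower in TTF-ieSC than in mature Sertoli cells.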

How the data were processed

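Mouse cells and tissue were hybridised to 13 arrays, 1 sample to each. The authors deposited log2 signals, already brought to 1 distribution on all arrays; limma was used per the submitters' processing notes, and background correction is not given in the sources used here. Features were named through the platform annotation, with symbols updated from a RefSeq table of build GRCm38.p6. Of 62976 features 31465 had 1 symbol and 31511 none, and a gene was read from its brightest feature by mean signal over the arrays.

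All 13 arrays in 6 groups were fitted in 1 linear model (limma 3.58.1, R 4.3.3, functions lmFit and eBayes) (7 residual degrees of freedom; 7 groups for the origins). Tests were two-sided, adjusted by Benjamini-Hochberg over the 23443 features above the array median on at least 2 of the 5 arrays compared, and called under 0.05. The ± values are standard errors unless marked SD. No depth exists for arrays, so their number limits the precision. The script was tested on simulated data.

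The comparison and the gene lists were chosen with earlier results of these data known. Named were the 5 factors, the 15 largest rises and 15 largest falls without overlap between the groups (clone and predicted symbols left out), up to 4 called members in each direction and the first 3 of each list, a set of 10 markers, and the 6 largest of the genes called in opposite directions by origin. Other genes were named after their values were seen. The alternatives concerned the filter, normalization, features per gene, groups, array weights, a minimum difference, leaving out each array and, added after the values were seen, the array set of the title numbers as a block.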

Additional observations from a re-analysis of the deposited data

Results flagged for a closer look

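The genes below were called in opposite directions in TTF-ieSC and MEF-ieSC against the same mature Sertoli arrays, and the difference between the origins was itself called by limma, with MEF-ieSC on a single array. Aldh9a1, an aldehyde dehydrogenase, had 14.96 and 15.25 in TTF-ieSC and 1.99 in MEF-ieSC, beside 12.28 and 12.25 in mature Sertoli cells. TTF-ieSC minus MEF-ieSC was 13.12 ± 0.57 (SE, adjusted p = 5.7e-06). Sirt1, a deacetylase, had 12.29 and 12.27 in TTF-ieSC and 1.95 in MEF-ieSC, beside 11.06 and 10.90, with a difference of 10.33 ± 0.54 (adjusted p = 1.3e-05). The Aldh9a1 and Sirt1 values of the MEF-ieSC array are near the lowest of the scale, which starts at 0.566. On that array 7 tested genes lay more than 4 log2 units under all the other arrays, against 1 on TTF-ieSC replicate 1 and 0 on each of the others.

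For the other 4 genes both origins stood nearer to the mature Sertoli level. Nqo1, a quinone reductase, differed by 4.19 ± 0.47 (adjusted p = 0.0007), with 12.32 and 12.39 in TTF-ieSC, 8.17 in MEF-ieSC and 11.11 and 11.08 in mature Sertoli cells. Tbx15 differed by 2.66 ± 0.08, Igf2bp3 by -2.34 ± 0.12 and Gucy1b1 by -2.24 ± 0.11, with the levels given in the report. Both fibroblast types had Tbx15 at 12.17 (TTF) and 12.98 (MEF) and Igf2bp3 at 11.59 and 12.52. These differences rest on 1 MEF-ieSC array, and a second was not analysed here.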

How the results depend on the processing

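Quantile normalization and 75th percentile centring gave the same counts, since the deposited arrays share 1 distribution. A filter on the mean over the 5 arrays, which tested 14214 genes, gave 6697 higher and 4678 lower in ieSC. Under it 203 list members were higher and 296 lower, in place of 205 and 350. With a filter at the 75th percentile, which tests fewer genes, 8002 genes were called (4479 higher, 3523 lower in ieSC); the counts were 4554 and 3586 for TTF-ieSC and 4310 and 3368 for MEF-ieSC. Against a minimum difference of 1, 4268 genes were called, 1696 higher and 2572 lower, a split that leans the other way from 6921 and 5634. That setting gave 1797 and 2647 for TTF-ieSC, 1640 and 2541 for MEF-ieSC, 47 higher and 20 lower for TTF-ieSC against MEF-ieSC, and 106 list members higher in place of 205. Leaving out 1 array in turn gave 11542 to 12727 calls, 6354 to 7001 higher and 5188 to 5726 lower; TTF-ieSC against MEF-ieSC gave 733 to 928 higher and 736 to 890 lower. Without the MEF-ieSC array Aldh9a1, Sirt1 and Nqo1, none of them called with the origins pooled, became higher in ieSC, and over the arrays left out their differences ran between -3.79 and 2.85, -3.87 and 1.30, and -0.85 and 1.26. Array weights put Nqo1 at 1.08, and weighting the origins equally put Gucy1b1 at 0.31 and Tbx15 at -0.18. For the 316 named genes tested over 18 alternatives, 5218 values outside the minimum difference kept their call or lack of a call. A change of sign between 2 values not called is counted among these. Another 32 values lost and 19 gained a call, and 6 changed sign with a call in either fit. A minimum difference of 1 ended 73 calls. The title numbers run through the groups in the same order up to 8 and again above it, and nothing in the labels calls these 2 sets a batch. The set-to-set differences of the groups held on 2 arrays correlated positively across genes in all 15 pairs of groups. Pearson correlations were 0.027 to 0.248, above 0.1 in 6 pairs, and Spearman rank correlations were 0.132 to 0.49. Arrays of 1 set thus deviated together to some extent, and the main fit left the sets out. With the set as a replicate block, chosen after seeing the data, 12789 genes were called (7049 higher, 5740 lower), TTF-ieSC against MEF-ieSC gave 1551 higher and 1391 lower, and none of the 316 named genes changed its call. The arrays limit precision through their number, 3 and 2, and dim features through an unknown background.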

Other observations

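Transcripts of the sex chromosomes were read in each group. The Y-linked gene Eif2s3y had 5.15, 5.08 and 6.00 on the ieSC arrays, against 12.85 and 12.71 on the mature Sertoli arrays, a log2 difference of -7.37 ± 0.23 (limma, adjusted p = 1.7e-09). Its level was 12.78 and 12.72 in immature Sertoli cells, 13.40 and 13.30 in the gonad, 11.12 and 11.07 in MEF and 6.11 and 5.84 in TTF. Uty, another Y-linked gene, had 5.35, 6.04 and 4.52 on the ieSC arrays, against 7.64 and 7.61 on the mature Sertoli arrays. Xist, the RNA that silences an X chromosome in female cells, was dim in both groups, at 5.94, 5.12 and 5.53 in ieSC and 5.35 and 4.40 in mature Sertoli cells, beside 9.85 and 9.83 in TTF and 9.25 and 9.27 in MEF. On the MEF-ieSC array both Eif2s3y and Xist were under the array median, while both were above it on the MEF arrays.

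Alpha globin transcripts were higher in the induced cells: Hba-a2 had 10.17, 10.28 and 11.73 in ieSC and 7.33 and 7.38 in mature Sertoli cells, a difference of 3.37 ± 0.38 (adjusted p = 1.9e-05). Hba-a1, a near-identical copy whose feature may read the same transcript, had 9.00, 9.12 and 10.35 in ieSC and 6.54 and 6.93 in mature Sertoli cells. Alas2, the erythroid enzyme of heme synthesis, fell by 2.83.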
